A study of Mus musculus with 4 samples.

Results

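The genes described here are 52 mouse genes of the extracellular matrix, out of 21631 protein-coding genes placed on the mm10 genome. They were chosen by name as matrix proteases, their inhibitors, matrix components and adhesion proteins, and the rule that defines them uses no loop count. The choice was nevertheless made with earlier results of these data known, so the genes are not a set picked blind to the loops. A chromatin loop was assigned to a gene when at least 1 of its anchors overlapped the RefSeq gene body extended by 10 kb on each side. All 52 symbols were found in the annotation, and they fall into 9 classes: 10 matrix metalloproteinases, 3 tissue inhibitors, 7 ADAMTS proteases, 7 laminins, 7 genes of fibronectin and the elastic fibre, 3 crosslinking oxidases, 7 matricellular proteins, 5 CCN proteins, and 3 genes of versican and hyaluronan synthesis.

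The extracellular matrix is the protein and sugar mesh in which cells of a tissue sit. In the uterus it is taken apart and rebuilt under ovarian hormones, at each cycle, at implantation and after birth. Metalloproteinases and ADAMTS proteases cut matrix proteins, TIMPs block them, and laminins, fibronectin, fibrillins and elastin form the structures that cells hold through integrins. Matricellular and CCN proteins are secreted into the matrix and change how cells attach and signal, while versican and hyaluronan make up much of the soft, water-binding part of the stroma.

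Loops were mapped by Hi-C, a method that cuts and rejoins DNA inside fixed nuclei so that segments lying close together are sequenced as 1 fragment. Whole uteri came from ovariectomised C57BL/6J females over 10 weeks old, rested for 10 to 14 days, and were taken 1 h after a single injection. The libraries were 1 of uterus of wild-type mice given 1 mg of progesterone (labelled replicate 2, here P4), 1 of uterus of the Ex3aERKO genotype, which lacks estrogen receptor alpha (ERα), after saline vehicle (here ERKO), and 2 of wild-type uterus after saline vehicle, labelled replicates 2 and 3 (here V2 and V3). Progesterone was dissolved in 100 ul of sesame oil and injected under the skin, whereas the 100 ul of saline went into the abdominal cavity, so carrier and route differ together with the hormone. Estradiol samples were not analysed here. The number of animals behind each library is not stated in the labels.

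The loop lists held 11752 loops after progesterone, 21829 in the ERα knockout, 16387 in vehicle replicate 2 and 9385 in vehicle replicate 3. Each list gives positions only, with anchors of 5, 10 or 25 kb. Sequencing depth and loop strength are therefore unknown, and a loop that is missing from a list was not called, which does not show that it is absent. The knockout list was 1.33 times as long as that of vehicle replicate 2 and 2.33 times as long as that of vehicle replicate 3, and the 2 vehicle lists differ 1.75-fold in length. The lists also differ in anchor size: loops with 5 kb anchors made up 49.6% of the list in P4, 64.8% in ERKO, 58.7% in V2 and 42.1% in V3. The part of list length and of anchor size in the differences below was not tested. With 1 library each of progesterone and knockout, no test between conditions could be made. Intervals are exact binomial 95% intervals (Clopper-Pearson) and cover counting error only. In whole tissue, fewer cells with a loop and a weaker loop in each cell cannot be told apart, and loop positions offer no check of tissue markers.

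Most of the matrix genes lay at a loop in every library. After progesterone, 37 of the 52 genes had a loop (71.2%, 56.9 to 82.9), against 50.0% of all protein-coding genes. In the ERα knockout it was 42 genes (80.8%, 67.5 to 90.4), against 65.1% of all genes. Vehicle replicate 2 had 43 (82.7%, 69.7 to 91.8), against 57.5%, and vehicle replicate 3 had 37 (71.2%, 56.9 to 82.9), against 45.3%. The matrix genes thus stood above the level of all genes in each of the 4 lists, and the counts for the 2 vehicle libraries span those of the other libraries.

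Matrix genes are longer than most genes, and a long gene meets more anchors. Their median length was 28.8 kb, against 17.3 kb over all genes, and the longest was the laminin gene Lama2 with 636 kb. Of the 52 genes, 21 were in the longest of 4 length classes of equal size (44.9 kb and over) and 22 had at most 2 other genes within 100 kb. Weighting all genes to the same 4 classes of length and 5 classes of gene density gave 56.4% after progesterone, 70.6% in the knockout, 63.5% in vehicle replicate 2 and 51.7% in vehicle replicate 3. In counts, 37 genes were seen after progesterone, where the class shares gave 29.3, 42 against 36.7 in the knockout, 43 against 33.0 in vehicle replicate 2 and 37 against 26.9 in vehicle replicate 3. The weighted level lay below the percentage of the 52 genes in all 4 lists; it was inside their counting interval in the knockout and just below the interval after progesterone. Weighting by density alone gave 51.6% in P4, 65.2% in ERKO, 58.5% in V2 and 47.0% in V3, near the level of all genes. Of the 21 genes in the longest class, 18 had a loop in P4 (85.7%, against 72.1% of all genes of that class), 20 in ERKO (95.2%, against 83.5%), 18 in V2 (85.7%, against 77.8%) and 16 in V3 (76.2%, against 66.7%).

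**Figure D1:**
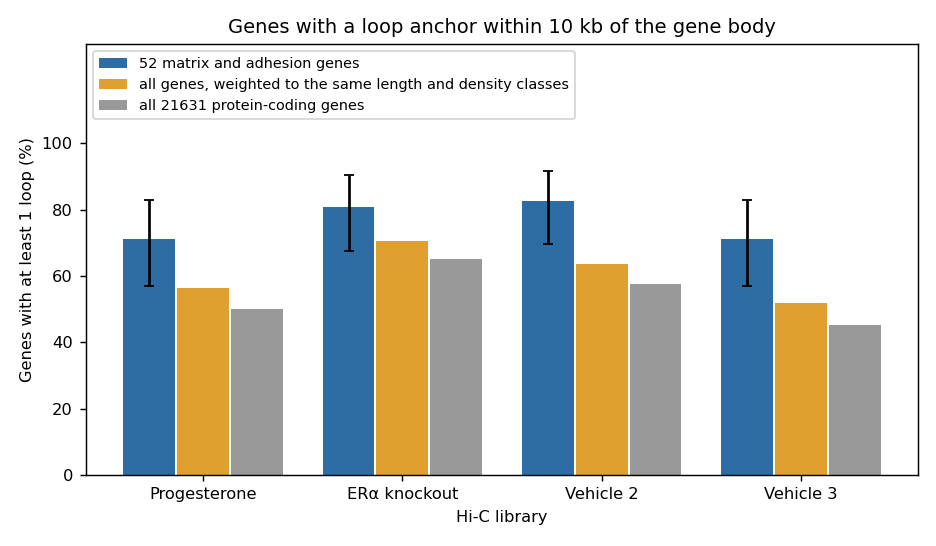
Share of genes with at least 1 loop in each library, in percent, for the 52 matrix genes (blue), all genes weighted to the same classes of length and density (orange) and all 21631 genes (grey). Error bars are exact 95% intervals for the blue bars; the blue bar is the highest in every library, and the weighted level enters its interval only in the knockout.

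The following shares were not weighted to classes of gene length and density. Among the 52 genes, 30 (57.7%) had a loop in all 4 libraries, against 38.8% of all genes. Only 4 (7.69%) had none in any library, against 29.7% of all genes. Those 4 were Timp1, an inhibitor of metalloproteinases on the X chromosome, Lamb2, a laminin beta chain, Loxl2, a collagen-crosslinking oxidase, and Mmp10, or stromelysin 2. Loops were found in 3 libraries for 6 genes, in 2 for 9 and in 1 for 3. The most frequent incomplete pattern was a loop in the 2 longest lists, the knockout and vehicle replicate 2, and in neither of the others. It held for 6 genes (Adamts15, Adamts5, Ccn1, Fn1, Lama1 and Lox; 11.5%), against 6.2% of all genes. Mmp3 and Spp1 had loops in the 3 wild-type lists and none in the knockout list, a pattern seen in 0.564% of all genes.

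Counted as loops, the 52 genes held 83 in the progesterone list (0.706%, 0.563 to 0.875), 135 in the knockout list (0.618%, 0.519 to 0.732), 124 in vehicle replicate 2 (0.757%, 0.63 to 0.902) and 73 in vehicle replicate 3 (0.778%, 0.61 to 0.977). These shares of the list overlap in their intervals. Loops per gene averaged 1.6 after progesterone, 2.62 in the knockout, 2.38 in vehicle replicate 2 and 1.4 in vehicle replicate 3, with averages over all genes of 1.01 in P4, 1.9 in ERKO, 1.38 in V2 and 0.825 in V3. Loops at the matrix genes had median spans of 200 kb in P4, 190 kb in ERKO, 205 kb in V2 and 220 kb in V3. Over all loops of a list the median was 190 kb in P4, 150 kb in ERKO, 185 kb in V2 and 200 kb in V3. The shortest spanned 35 kb in each list. The far anchor of a matrix loop overlapped no protein-coding gene in 53.0% of cases after progesterone, 51.5% in the knockout, 55.6% in vehicle replicate 2 and 58.9% in vehicle replicate 3. Another gene lay there in 37.1% to 39.8% of cases, and the far anchor fell within the window of the same gene in 2.74% to 8.82%. In a related measure, both anchors overlapped gene bodies in 34.2% (V3) to 41.5% (ERKO) of matrix loops. Over all loops it was 40.8% (V3) to 47.2% (ERKO). For 23 of the 52 genes the window also overlapped another protein-coding gene, so a loop there cannot be assigned to 1 gene. At the other 29 an anchor can still lie on a gene beyond the window, as at Spp1, described below. A loop that joined 2 of the 52 genes occurred once among the 4 lists, between Adamts1 and Adamts5 in the knockout.

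**Figure D2:**
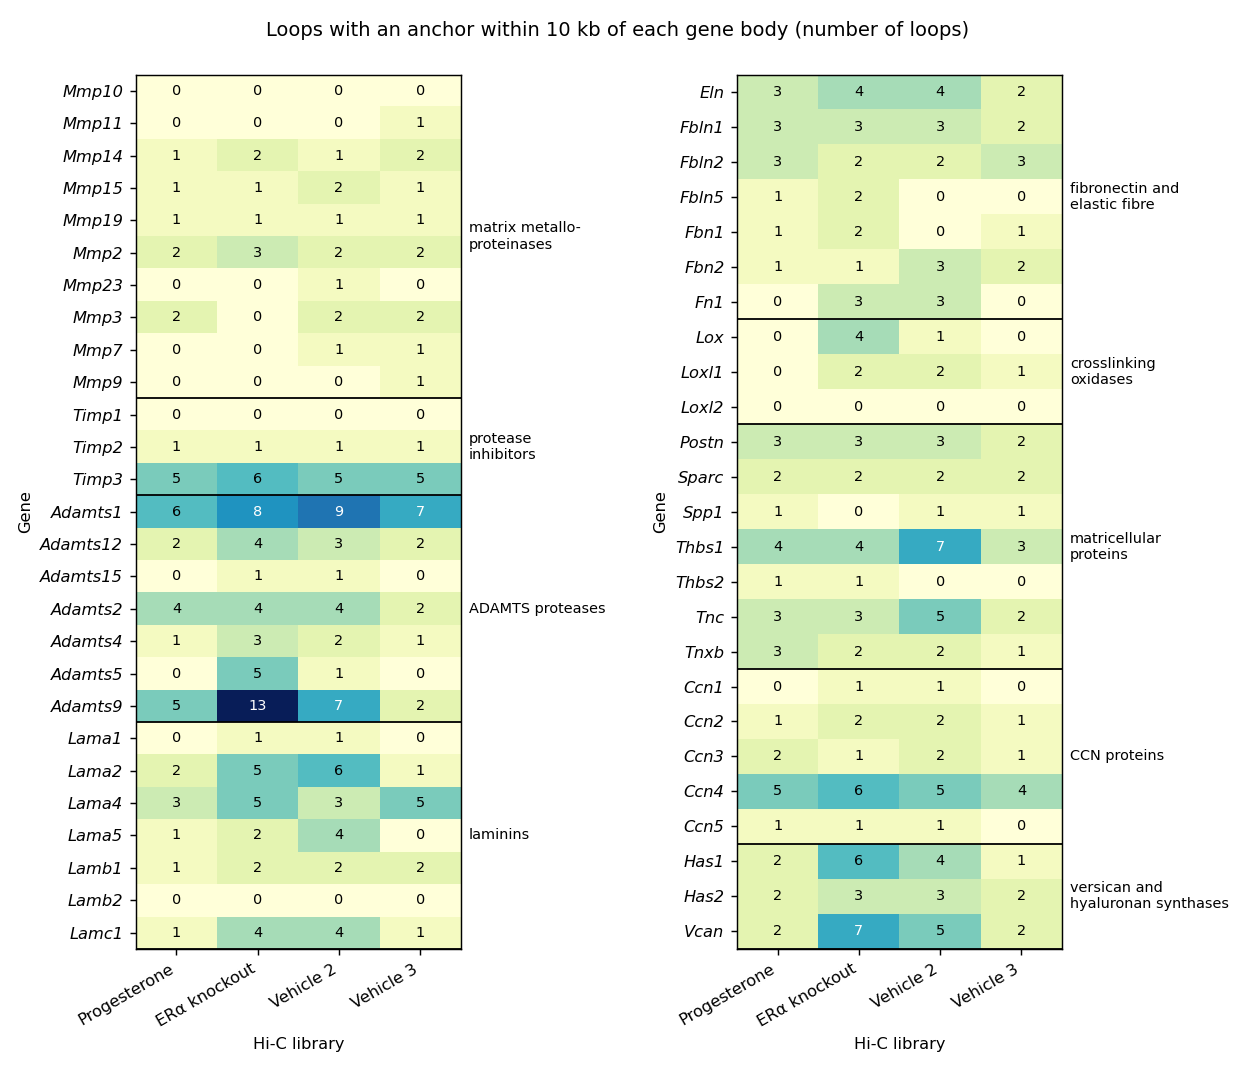
Number of loops with an anchor within 10 kb of the gene body, for each of the 52 genes (rows, by class) in each Hi-C library (columns). Colour deepens with the number printed in the cell; Adamts9 has the highest cell, 13 in the knockout, and Adamts1 and Timp3 have 5 or more in every library.

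The start site of a gene could be placed for 31 of the 52 genes. It lay inside a loop anchor for 10 of them after progesterone, 11 in the knockout, 11 in vehicle replicate 2 and 10 in vehicle replicate 3 (32.3% in P4 and V3, 35.5% in ERKO and V2). Over the 17274 genes with a placed start, the shares were 21.9% in P4, 38.5% in ERKO, 28.0% in V2 and 17.6% in V3. The number of matrix genes with a start at an anchor thus varied little over lists of very different length, which also differ in anchor size. In V3, the anchors that held the starts of Lamb1, Mmp11, Mmp14 and Postn were 25 kb wide. For 6 genes the start lay at an anchor in every library (19.4%, against 10.2% of all genes with a placed start): Adamts1, Adamts9, Fbln1, Lamb1, Postn and Timp3.

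Of those 6 promoters, 4 are shown because their start lies at a loop end in every library and they include the gene with the most shared loops (Adamts1), the inhibitor with the most (Timp3), and the 3 promoters in which a searched motif was found. The sequences are the 250 bases before the start site, 5′ to 3′ on the gene's strand, from RefSeq on GRCm38.p6. Capitals mark matches to the motifs searched.
Adamts1, chr16:85803114-85803363, minus strand: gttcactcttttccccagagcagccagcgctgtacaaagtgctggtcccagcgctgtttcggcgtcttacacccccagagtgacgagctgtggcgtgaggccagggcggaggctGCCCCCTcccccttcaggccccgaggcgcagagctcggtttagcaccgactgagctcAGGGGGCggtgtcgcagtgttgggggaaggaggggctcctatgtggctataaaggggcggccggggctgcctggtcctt
Timp3, chr10:86300162-86300411, plus strand: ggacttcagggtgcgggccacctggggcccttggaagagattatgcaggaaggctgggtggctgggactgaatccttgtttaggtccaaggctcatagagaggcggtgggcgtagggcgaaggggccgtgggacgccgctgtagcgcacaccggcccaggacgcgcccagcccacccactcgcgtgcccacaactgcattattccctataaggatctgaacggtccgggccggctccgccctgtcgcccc
Lamb1, chr12:31265043-31265292, plus strand: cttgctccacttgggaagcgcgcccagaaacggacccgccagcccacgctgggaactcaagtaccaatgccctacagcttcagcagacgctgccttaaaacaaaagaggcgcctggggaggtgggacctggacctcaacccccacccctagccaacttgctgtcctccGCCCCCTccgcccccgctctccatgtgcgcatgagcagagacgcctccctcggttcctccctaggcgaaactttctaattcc
Postn, chr3:54359017-54359266, plus strand: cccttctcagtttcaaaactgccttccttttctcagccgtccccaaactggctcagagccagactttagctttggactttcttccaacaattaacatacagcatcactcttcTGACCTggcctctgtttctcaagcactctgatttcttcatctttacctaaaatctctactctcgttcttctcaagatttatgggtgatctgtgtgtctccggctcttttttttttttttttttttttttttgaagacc

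Both strands were searched for AGGGGGC, a part of the core that the loop anchor protein CTCF binds, for AGGTCA, the core repeat of estrogen response elements, for ACANNNTGT, the core of progesterone and glucocorticoid response elements, and for TGANTCA, the site of AP-1. AGGGGGC was found in the Adamts1 promoter on both strands and in the Lamb1 promoter as its reverse complement, and 9.43% of all 32851 promoters of that length hold it. AGGTCA was found in the Postn promoter as its reverse complement TGACCT, and 14.0% of all promoters hold it. The other motifs, held by 5.84% and 6.75% of all promoters, were in none of the 6. No matches in the printed promoters overlapped each other. A match is a description of the letters and not a bound site. By base composition, the promoters of Adamts1 and Timp3 had 65.6% G and C, Lamb1 62.0% and Postn 40.4%, around a median of 52.4% over all promoters.

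ADAMTS proteases had the most loops per gene among the classes of 7 or more genes, in each of the 4 libraries. All 7 genes had a loop in the knockout and in vehicle replicate 2, and 5 of 7 had one after progesterone and in vehicle replicate 3. The shares of the length and density classes gave 4.09 after progesterone, 5.13 in the knockout, 4.59 in vehicle replicate 2 and 3.79 in vehicle replicate 3. Loops per gene of the class averaged 2.57 in P4, 5.43 in ERKO, 3.86 in V2 and 2.0 in V3, with the highest value in the longest list.

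Adamts1 (chr16:85793827-85803113, minus strand), a secreted protease that cuts versican and aggrecan and is known as a progesterone target in the ovary, had the most loops shared by all libraries. It had 6 loops after progesterone, 8 in the knockout, 9 in vehicle replicate 2 and 7 in vehicle replicate 3. Of these, 6 were matched in all 4 lists, and they were all of the loops of the progesterone list. They end at or just beyond the promoter printed above, at anchors within chr16:85800001-85810000. A short one reaches 45 kb to an anchor at chr16:85755001-85760000, downstream of the gene. The other 5 run over 610, 835, 1075, 1270 and 1440 kb in the opposite direction, across the neighbouring gene Adamts5, to anchors that overlap no protein-coding gene. A further loop of 495 kb (chr16:85805001-85810000 with chr16:86300001-86305000) was listed in both vehicle libraries and not matched in the progesterone or the knockout list. Both of those lists held a loop of 480 kb to the same far anchor, whose near anchor, chr16:85820001-85825000, lay 15 kb further from Adamts1 and outside its window.

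Adamts5 (chr16:85858157-85901125), the neighbouring protease and a major aggrecan-cutting enzyme of cartilage, had no loop after progesterone, 5 in the knockout, 1 in vehicle replicate 2 and none in vehicle replicate 3. Of its 5 ERKO loops, 4 had no match in V2 or V3, with spans of 80, 95, 105 and 750 kb. The 95 kb loop joins chr16:85800001-85805000, which holds the Adamts1 start, to chr16:85895001-85900000 within Adamts5. No loop of the other 3 lists joined these genes.

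**Figure D3:**
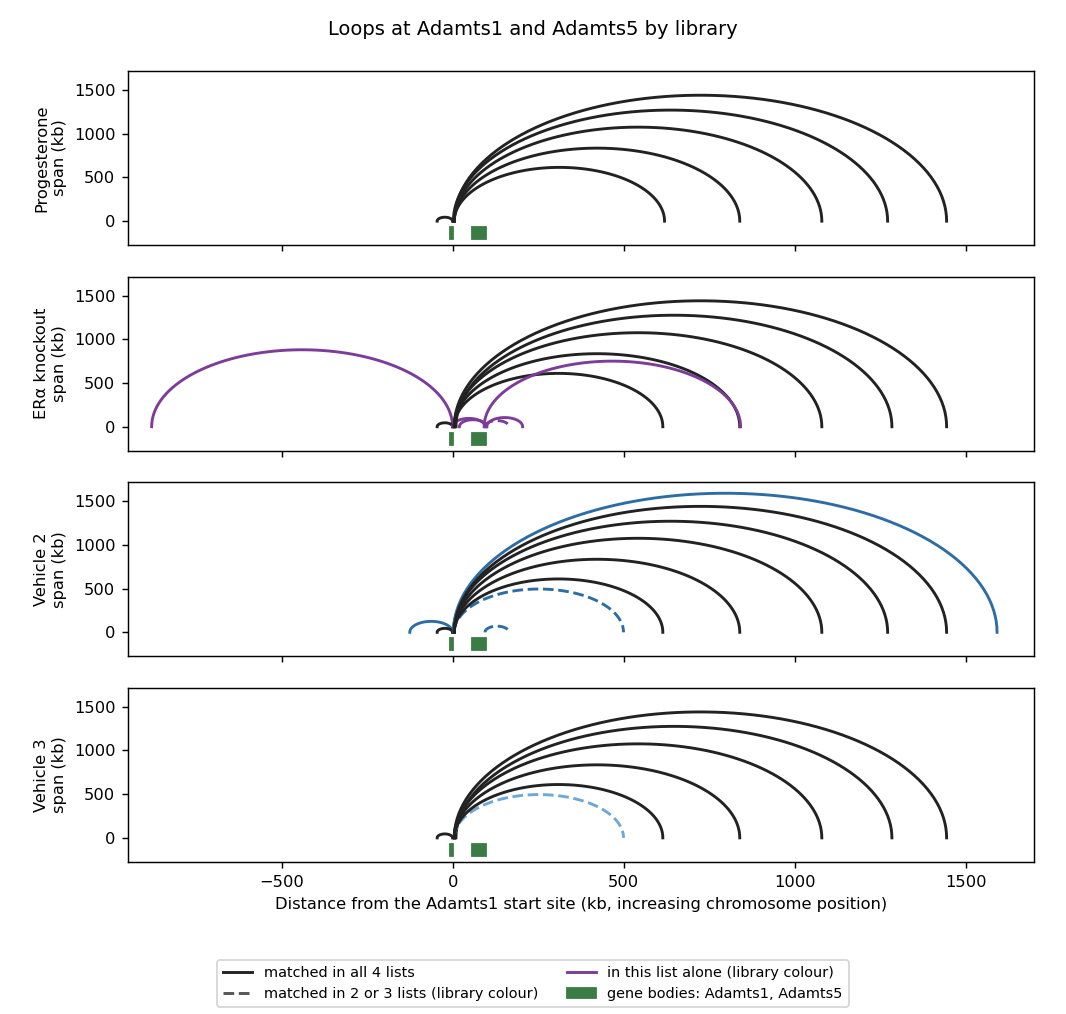
Loops at Adamts1 and Adamts5 in each library, drawn as arcs between anchor centres against distance from the Adamts1 start (kb), with height equal to span (kb). Black arcs were matched in all 4 lists, dashed arcs in 2 or 3, and coloured solid arcs in that list alone; the 6 black arcs at Adamts1 recur in every panel, and the short arcs around Adamts5 are mainly in the knockout panel.

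Adamts9 (chr6:92772699-92944450, minus strand), a protease of versican and aggrecan, had 5 loops after progesterone, 13 in the knockout, 7 in vehicle replicate 2 and 2 in vehicle replicate 3. The number followed the length of the list in order. A single loop of 755 kb was matched in all 4 lists, from chr6:92785001-92790000 near the end of the gene to chr6:93540001-93545000, with no gene at the far anchor. Of its ERKO loops, 7 had no match in V2 or V3, more than at any other of the 52 genes. These included loops of 60 and 75 kb within the gene and of 65, 275, 450, 600 and 950 kb beyond it, and 4 of the 7 had an anchor at the gene's start. After progesterone, 2 loops were in neither vehicle list: 135 kb within the gene, and 1250 kb to Magi1, a scaffold protein gene. From the same 25 kb anchor at Adamts9, loops to other positions in Magi1 were in V2 (1200 kb) and ERKO (950 kb). The loop of 125 kb at the start (chr6:92940001-92945000 with chr6:93065001-93070000) was in the ERKO, V2 and V3 lists and had no match after progesterone.

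**Figure D4:**
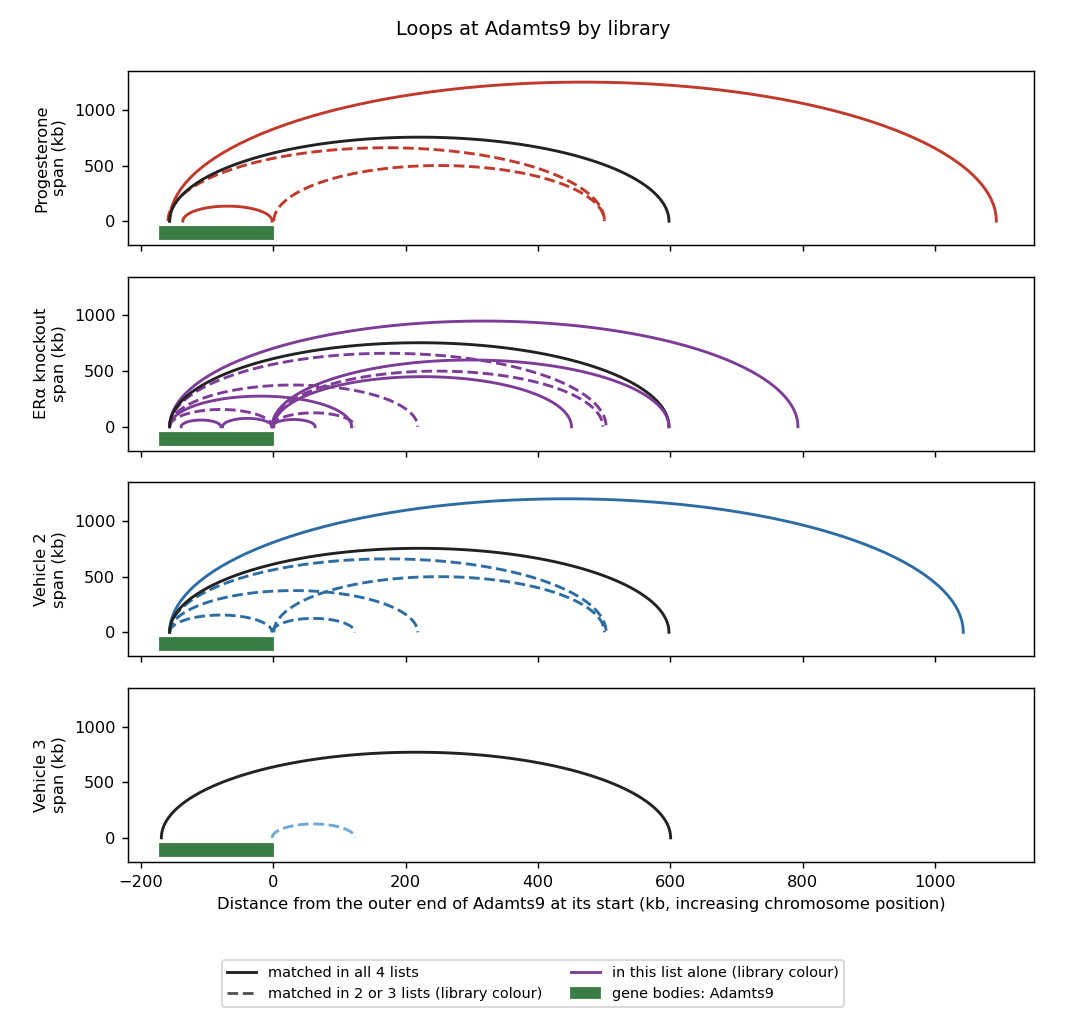
Loops at Adamts9 in each library, drawn as arcs between anchor centres against distance from the end of the gene body on its start side (kb), with height equal to span (kb). Black arcs were matched in all 4 lists, dashed arcs in 2 or 3, and coloured solid arcs in that list alone; the knockout panel has 13 arcs and the vehicle replicate 3 panel 2.

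Among the other ADAMTS genes, Adamts2, which trims the ends of procollagens, had 4 loops after progesterone, 4 in the knockout, 4 in vehicle replicate 2 and 2 in vehicle replicate 3. Its 2 loops in all lists run 210 and 325 kb from chr11:50765001-50770000 inside the gene. Adamts12, a protease of cartilage oligomeric matrix protein, had 2 loops in P4, 4 in ERKO, 3 in V2 and 2 in V3. Its 2 loops in all lists, of 285 and 400 kb, leave from chr15:11320001-11325000 near the end of the gene, and the shorter reaches Rxfp3, a relaxin peptide receptor gene. Adamts4, another aggrecan-cutting enzyme, had 1 in P4, 3 in ERKO, 2 in V2 and 1 in V3. Adamts15, of the same group, had 1 loop in the knockout and 1 in vehicle replicate 2, and none elsewhere.

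The protease inhibitors were split. Timp3 (chr10:86300412-86349505, plus strand), the inhibitor that stays bound to the matrix and blocks ADAMTS proteases as well as metalloproteinases, had 5 loops after progesterone, 6 in the knockout, 5 in vehicle replicate 2 and 5 in vehicle replicate 3. These counts hardly differ over lists whose lengths differ 2.33-fold. Of its loops, 4 were matched in all lists, the second most of the 52 genes. A pair of them, spanning 115 and 230 kb, ends at chr10:86295001-86300000 just before the promoter shown above. The others, spanning 35 and 150 kb, start at chr10:86300001-86305000, which holds the start. Timp3 lies within the larger gene Syn3, which encodes a synaptic vesicle protein, so its loops cannot be assigned to 1 of these genes. Timp2, an inhibitor that also takes part in the activation of MMP2, had 1 loop in each library, and Timp1 had none. The 2 genes with a loop compare with class shares of 1.72 in P4, 2.05 in ERKO, 1.9 in V2 and 1.58 in V3.

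Matrix metalloproteinases had about 1 loop per gene or fewer, and their counts did not follow the length of the lists. A loop was found at 5 of the 10 after progesterone, 4 in the knockout, 7 in vehicle replicate 2 and 8 in vehicle replicate 3. The shares of the length and density classes gave 4.57 in P4, 6.46 in ERKO, 5.5 in V2 and 4.08 in V3. The longest list thus held loops at the fewest of these genes, below its class share, and the shortest list at the most. These 2 lists also differ in anchor size, and the V3 loops at Mmp7, Mmp9 and Mmp11 all had 25 kb anchors. The part of anchor size in these counts was not tested. Mean loops per gene were 0.7 after progesterone, 0.7 in the knockout, 1.0 in vehicle replicate 2 and 1.1 in vehicle replicate 3.

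Mmp2, a gelatinase of basement membranes, was the metalloproteinase with the most loops, with 2 after progesterone, 3 in the knockout, 2 in vehicle replicate 2 and 2 in vehicle replicate 3. From chr8:92825001-92830000 at the gene, loops of 45 kb to Lpcat2 and 165 kb to Slc6a2 were matched in all lists. Mmp14, the membrane protease that activates MMP2, had 1 loop in P4, 2 in ERKO, 1 in V2 and 2 in V3. Mmp15, a related membrane protease, had 1 in P4, 1 in ERKO, 2 in V2 and 1 in V3, and Mmp19 had 1 in each. The remaining genes were listed in part of the libraries: Mmp11, or stromelysin 3, and Mmp9, a gelatinase made by white blood cells, had 1 loop each, counted in vehicle replicate 3, and Mmp23 had 1 in vehicle replicate 2. The Mmp11 loop of V3 had a match in each of the other 3 lists, with anchors outside the 10 kb window of the gene, whereas the Mmp9 and Mmp23 loops had no match.

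The metalloproteinase cluster of chromosome 9 holds Mmp3, Mmp10 and Mmp7 of the list. Mmp3 (chr9:7445822-7455975, plus strand), the matrix protease stromelysin 1, had 2 loops after progesterone, none in the knockout, 2 in vehicle replicate 2 and 2 in vehicle replicate 3. Its loop of 140 kb (chr9:7450001-7460000 with chr9:7590001-7600000) was in the 3 wild-type lists and had no counterpart in the knockout list, even within 25 kb. The other progesterone loop, of 90 kb, reached Mmp12, the macrophage elastase gene, and had a near counterpart in a vehicle list. Mmp7, or matrilysin, an epithelial protease, had no loop after progesterone or in the knockout, and 1 in each vehicle library. The knockout list, the longest of the 4, therefore held no loop within 10 kb of any of these 3 genes. A match of the Mmp7 loop of V3 was in the knockout list, and one of the V2 loop in the progesterone list, with anchors beyond that distance. Mmp10 had no loop in any list, so only Mmp3 had loops in all wild-type lists and none in the knockout. The knockout list did hold loops in the cluster, 2 at Mmp27 and 1 at Mmp13, and none at Mmp8, Mmp12 or Mmp20.

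Laminins, the network-forming proteins of basement membranes, had a loop at 5 of 7 genes after progesterone, 6 in the knockout, 6 in vehicle replicate 2 and 4 in vehicle replicate 3. These were close to the class shares of 4.8 in P4, 5.75 in ERKO, 5.26 in V2 and 4.41 in V3. Lama4, an alpha chain of vessel and muscle basement membranes, had 3 loops after progesterone, 5 in the knockout, 3 in vehicle replicate 2 and 5 in vehicle replicate 3, with 3 matched in all lists. These spanned 85, 160 and 2050 kb, and the longest joined it to Hdac2, a histone deacetylase gene. Lama2, the alpha chain of muscle basement membrane, had 2 loops in P4, 5 in ERKO, 6 in V2 and 1 in V3. Lamb1, whose promoter is shown above, had 1 in P4, 2 in ERKO, 2 in V2 and 2 in V3, and Lamc1 had 1 in P4, 4 in ERKO, 4 in V2 and 1 in V3. Lama5 had 1 loop in P4, 2 in ERKO, 4 in V2 and 0 in V3, and Lama1 had 1 loop in the knockout and 1 in vehicle replicate 2. A counterpart of the Lama1 loop was in the other 2 lists with an anchor beyond the 10 kb window.

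Genes of fibronectin and the elastic fibre had a loop at 6 of 7 after progesterone, 7 in the knockout, 5 in vehicle replicate 2 and 5 in vehicle replicate 3. The class shares were 4.93 in P4, 5.78 in ERKO, 5.34 in V2 and 4.59 in V3. Fbln1, a fibulin of basement membranes and elastic fibres, had 3 loops in P4, 3 in ERKO, 3 in V2 and 2 in V3, with 2 matched in all lists. Their far ends lie upstream of the gene, and the one of 45 kb starts at the anchor chr15:85205001-85210000 that holds its start. Fbln2, a related fibulin, had 3 in P4, 2 in ERKO, 2 in V2 and 3 in V3. Its V2 loops of 460 kb to Iqsec1 and 105 kb to Hdac11 were matched in all lists. The V3 match of the shorter loop spanned 95 kb, had no gene at its far anchor and was itself not matched in P4. Eln, the elastin gene, had 3 loops in P4, 4 in ERKO, 4 in V2 and 2 in V3. Fn1, the fibronectin gene, had none after progesterone, 3 in the knockout, 3 in vehicle replicate 2 and none in vehicle replicate 3. Fbn1, the gene of fibrillin 1, had 1 loop in P4, 2 in ERKO, 0 in V2 and 1 in V3. Its relative Fbn2 had 1 in P4, 1 in ERKO, 3 in V2 and 2 in V3. Fbln5, a fibulin needed for elastic fibre assembly, had 1 loop after progesterone, 2 in the knockout and none in either vehicle library.

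The 3 crosslinking oxidases had loops mainly in the longer lists. None had a loop after progesterone, 2 had one in the knockout, 2 in vehicle replicate 2 and 1 in vehicle replicate 3, and the class shares were 1.68 in P4, 2.12 in ERKO, 1.9 in V2 and 1.56 in V3. Lox, the lysyl oxidase that links collagen and elastin, had no loop after progesterone, 4 in the knockout, 1 in vehicle replicate 2 and none in vehicle replicate 3. Loxl1, its elastic fibre relative, had 0 loops in P4, 2 in ERKO, 2 in V2 and 1 in V3. The progesterone list and that of vehicle replicate 3, the 2 shorter lists, differ here by the single loop at Loxl1.

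Matricellular proteins had a loop at all 7 genes after progesterone and at 6 in each of the knockout, vehicle replicate 2 and vehicle replicate 3. The class shares gave 3.86 in P4, 4.77 in ERKO, 4.35 in V2 and 3.52 in V3. Thbs1 (chr2:118111876-118127133), thrombospondin 1, which releases active TGF-beta from its latent form, had 4 loops after progesterone, 4 in the knockout, 7 in vehicle replicate 2 and 3 in vehicle replicate 3. Tnc, or tenascin C, had 3 in P4, 3 in ERKO, 5 in V2 and 2 in V3, and Postn, or periostin, had 3 in P4, ERKO and V2 and 2 in V3. Sparc, a collagen-binding protein, had 2 loops in every library. Tnxb, or tenascin X, had 3 in P4, 2 in ERKO, 2 in V2 and 1 in V3. Thbs2, a second thrombospondin, had 1 after progesterone, 1 in the knockout and none in the vehicle libraries. Spp1, or osteopontin, an integrin ligand of the implanting uterus, had 1 after progesterone, none in the knockout and 1 in each vehicle library.

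CCN proteins are small secreted regulators encoded by short genes. A loop was found at 4 of 5 after progesterone, 5 in the knockout, 5 in vehicle replicate 2 and 3 in vehicle replicate 3, and the class shares were 1.94 in P4, 2.5 in ERKO, 2.24 in V2 and 1.79 in V3. Ccn4 (chr15:66891369-66923201), a target of Wnt signalling, had 5 loops in P4, 6 in ERKO, 5 in V2 and 4 in V3, of which 3 were matched in all lists. They leave the gene in both directions, over 225 kb to the thyroglobulin gene Tg and over 190 and 530 kb to anchors without a gene. Ccn3 had 2 loops in P4, 1 in ERKO, 2 in V2 and 1 in V3. Ccn2, the connective tissue growth factor, had 1 in P4, 2 in ERKO, 2 in V2 and 1 in V3. Ccn5 had 1 loop in each list but that of vehicle replicate 3, and Ccn1 had 1 in the knockout and 1 in vehicle replicate 2.

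Versican and the hyaluronan synthases, 3 genes, all had loops in every library, where the class shares gave 1.75 in P4, 2.17 in ERKO, 1.96 in V2 and 1.59 in V3. Vcan (chr13:89655309-89743027, minus strand), the large proteoglycan cut by ADAMTS proteases, had 2 loops after progesterone, 7 in the knockout, 5 in vehicle replicate 2 and 2 in vehicle replicate 3. Loops of 345 and 1175 kb were matched in all lists, and their matches were the 2 loops of P4 and of V3. Has2, the main hyaluronan synthase of stroma, had 2 loops in P4, 3 in ERKO, 3 in V2 and 2 in V3, with those of 160 and 810 kb in all lists and no gene at their far ends. Has1 had 2 in P4, 6 in ERKO, 4 in V2 and 1 in V3. The loops of Vcan and Has1 were looked at after their counts were seen. In the knockout and in vehicle replicate 2 the longest loop of the 52 genes was at Has1, with spans of 3100 kb and 3725 kb.

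Loops were then compared between lists. A loop counted as matched when both anchors, widened by 10 kb on each side, overlapped both anchors of a loop in the other list. Of the 124 loops at these genes in vehicle replicate 2, 48 were matched in the other 3 lists (38.7%, 30.1 to 47.9), against 39.0% of all its loops. They lay at 26 of the 52 genes (50.0%), against 33.8% of all genes. Adamts1 had 6 of them, Timp3 4, and Ccn4 and Lama4 3 each. Then came 10 genes with 2 and 12 with 1. Per loop, recurrence was thus close to that of all loops, and per gene it was above that of all genes. The share per gene was not weighted by gene length, and the 52 genes averaged 2.38 loops in V2, against 1.38 over all genes. With no widening of the anchors, 22 loops were matched in all lists.

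Against vehicle, the progesterone list differed at a minority of the loops of matrix genes, and the level of all loops lay within the counting interval in both directions. Of the 60 loops in both vehicle lists, 5 had no match in the progesterone list (8.33%, 2.76 to 18.4), against 15.1% of all loops. Those 5 lay at 5 genes (9.62%), against 9.64% of all genes. Conversely, 10 of 83 loops of the P4 list had no match in V2 or V3 (12.0%, 5.93 to 21.0), against 14.8% of all loops. They lay at 9 genes (17.3%), against 12.7% of all genes, with no weighting of the shares per gene by gene length. Between the vehicle libraries the same measure gave 17 of 72 loops (23.6%) shared by progesterone and vehicle replicate 2 that vehicle replicate 3 lacked, against 28.2% of all loops. It gave 1 of 56 (1.79%) shared by progesterone and vehicle replicate 3 that vehicle replicate 2 lacked, against 5.99% of all loops.

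Loops of both vehicle lists with no progesterone match were found at Thbs1 (310 kb), Adamts9 (125 kb), Timp3 (320 kb), Mmp14 (375 kb) and Adamts1 (495 kb). For Thbs1 and, as given above, Adamts1, a loop within 25 kb was in the progesterone list (40.0%, against 25.9% of all loops of this kind). At Thbs1, the vehicle loop joined chr2:118110001-118115000 to chr2:117800001-117805000, and the progesterone loop joined the same gene anchor to chr2:117785001-117790000, so the far ends differed by 3 bins of 5 kb. Loops of the progesterone list alone were at Thbs1 (325 kb), Fbn1 (225 kb, to Cep152), Adamts9 (135 and 1250 kb), Mmp3 (90 kb), Timp3 (100 kb), Fbln1 (315 kb, to Wnt7b, which encodes a secreted Wnt ligand) and Thbs2 (45 kb). The loops at Adamts2 (100 kb within the gene) and Fbln5 (60 kb, to Trip11) were also in the knockout list. Of these 10 loops, 5 had a vehicle loop within 25 kb (50.0%), against 25.3% of all loops of this kind. Loops at other positions in other lists joined some of the same pairs of genes. A loop of 255 kb from within 10 kb of Fbln1 reached Wnt7b in V2 and ERKO. One of 270 kb joined Fbn1 to Cep152 in V3 and ERKO. The counts depend on the vehicle libraries: without vehicle replicate 2, 17 vehicle loops had no progesterone match (23.3%, against 21.6% of all loops) and 27 progesterone loops had no vehicle match (32.5%, against 37.4%). Without vehicle replicate 3 these were 52 (41.9%, against 41.8%) and 12 (14.5%, against 19.0%). With no widening of the anchors they were 13 and 25.

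In the ERα knockout list, 8 of the 60 loops of both vehicle lists had no match (13.3%, 5.94 to 24.6), against 10.0% of all loops. They lay at 8 genes (15.4%), against 6.47% of all genes. This share per gene was not weighted by gene length, and the 52 genes averaged 2.38 loops in V2, against 1.38 over all genes. Among the 55 loops found in all 3 wild-type lists, 7 had no knockout match (12.7%, 5.27 to 24.5), against 6.7% of all loops. Both of these intervals include the level of all loops. Between the vehicle libraries, 29 of 81 loops (35.8%) shared by the knockout and vehicle replicate 2 were not in vehicle replicate 3, against 40.4% of all loops. Likewise 4 of 57 (7.02%) shared by the knockout and vehicle replicate 3 were not in vehicle replicate 2, against 7.95% of all loops. With vehicle replicate 2 left out, 16 of 73 vehicle loops had no knockout match (21.9%, 13.1 to 33.1), against 15.0% of all loops. With vehicle replicate 3 left out it was 43 of 124 (34.7%, 26.4 to 43.7), against 25.7%, a level just below that interval.

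The 8 genes were Postn (175 kb), Spp1 (250 kb, to Dmp1), Eln (155 kb, to Tmem270), Mmp15 (75 kb, to Cfap20), Mmp3 (140 kb), Timp2 (60 kb), Ccn4 (1325 kb, to Zfat) and Adamts1 (495 kb). All but the Adamts1 loop were also in the progesterone list. The far anchor of the Eln loop overlapped Tmem270 in the V2 list, and no gene in the P4 and V3 lists. For Mmp15, Timp2 and Adamts1 a knockout loop lay within 25 kb. For the other 5 none did in V2 coordinates, and the share with a near loop was 37.5%, against 47.3% of all loops of this kind. At Eln, a knockout loop of 125 kb did lie within 25 kb of the V3 copy of the loop. At Spp1 (chr5:104435111-104441053, plus strand) the loop was the gene's only one in each wild-type list, and it joined chr5:104450001-104475000, beyond the end of Spp1 and on Pkd2, to chr5:104200001-104225000 on Dmp1. Dmp1 encodes another phosphoprotein of the family of Spp1. At Postn the knockout list held a loop of 450 kb to Smad9 and Rfxap from the same 25 kb anchor that held the 175 kb loop of the wild-type lists, an anchor that includes the promoter shown above.

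In the other direction, 49 of 135 loops of the ERKO list had no match in V2 or V3 (36.3%, 28.2 to 45.0), against 40.6% of all knockout loops. They lay at 28 genes (53.8%), against 44.2% of all genes, again with no weighting by gene length. Adamts9 had 7, Adamts5 4 and Lox 3, and 11 genes had 2 and 14 had 1. The 3 loops of Lox spanned 40, 60 and 110 kb. Among genes with 2, Fn1 had loops of 95 and 545 kb, Eln 125 and 325 kb, Ccn4 150 and 270 kb, Adamts12 55 and 210 kb, Adamts2 40 and 100 kb, Fbln5 60 and 140 kb, and Adamts1 95 and 880 kb. Of the 49, 11 had a vehicle loop within 25 kb (22.4%), against 14.1% of all loops of this kind. Without vehicle replicate 2 the count became 79 (58.5%, against 63.3% of all loops), while without vehicle replicate 3 it was 54 (40.0%, against 44.1%).

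**Figure D5:**
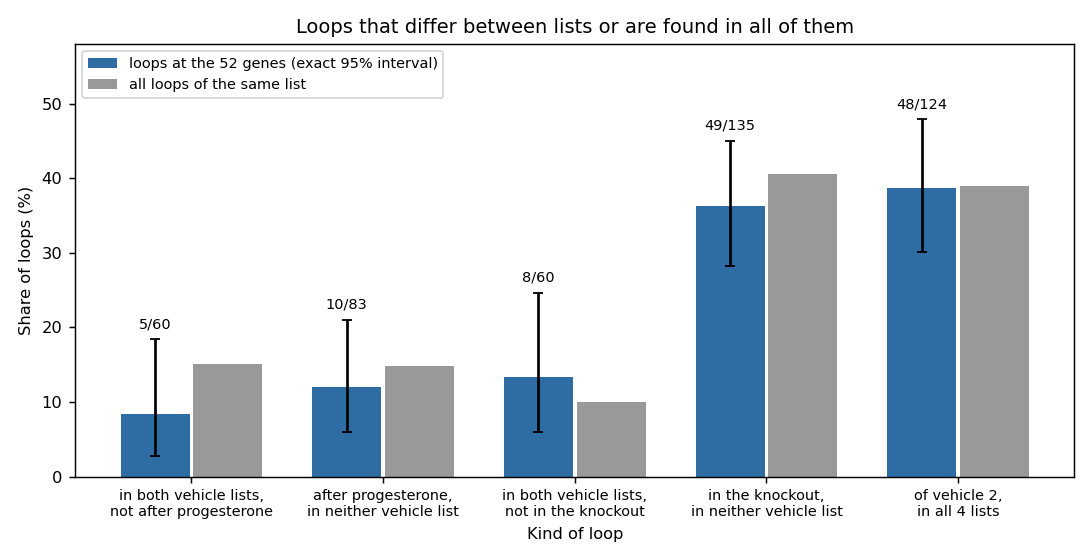
Share of loops, in percent, that differ between lists or recur in all 4, for loops at the 52 genes (blue, with exact 95% intervals and the counts above) and all loops of the same list (grey). The grey level lies inside the interval of the blue bar for each of the 5 kinds.

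Further genes of the same families, 39 that were not among the 52, gave similar counts. A loop was found at 28 after progesterone (71.8%), 31 in the knockout (79.5%), 31 in vehicle replicate 2 (79.5%) and 26 in vehicle replicate 3 (66.7%), where the length and density classes gave 23.1 in P4, 29.1 in ERKO, 26.1 in V2 and 21.1 in V3. In all 4 lists it was 21 genes, and none was found at Fbln7, Mmp20 or Mmp21. Thbs4, a thrombospondin, had 4 loops in P4, 8 in ERKO, 9 in V2 and 3 in V3, and Adamts3, a procollagen protease like Adamts2, had 3 in P4, 6 in ERKO, 8 in V2 and 4 in V3. Integrins, the receptors that bind these matrix proteins, had a loop at 18 of 20 genes after progesterone (90.0%), 19 in the knockout (95%), 19 in vehicle replicate 2 (95%) and 17 in vehicle replicate 3 (85.0%). Their class shares gave 13.1 in P4, 16.1 in ERKO, 14.6 in V2 and 11.9 in V3. Loops were in all 4 lists for 17 integrins, and Itga2b, the platelet integrin alpha chain, had none. Itgav, an alpha chain of osteopontin and fibronectin receptors, had 3 loops in P4, 6 in ERKO, 2 in V2 and 2 in V3, and Itgb8, a beta chain of a receptor for latent TGF-beta, had 3 in P4, 7 in ERKO, 8 in V2 and 1 in V3. Thbs4, Adamts3, Itgav and Itgb8 were named after their values were seen.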

How the data were processed

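Hi-C libraries of whole uterus were made with an Arima kit, as the labels' protocols state. The authors deposited 1 loop list per library, holding the positions of both anchors on mm10, made with Juicer 1.5.6, per the submitters' processing notes. Thresholds of the loop caller are not stated in those notes. The deposited starts count from 0 and were written from 1. Genes and promoters came from RefSeq tables of GRCm38.p6, the assembly behind mm10.

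The genes, their classes and the comparison lists were chosen with earlier results of these data known. A gene was counted at a loop when an anchor overlapped its body extended by 10 kb. Matching added 10 kb to each side of the anchors of a loop and asked for overlap at both ends of a loop in the other list. Loops of both vehicle lists were counted in replicate 2 coordinates. The planned match on gene density is given as the share of all genes in each of 4 length classes and 5 density classes, weighted to the 52 genes. Loops were described for up to 10 genes with the most loops in all lists and up to 10 in each kind that differs, in order of number, finest bin and symbol; genes without a loop were all named. No tests between conditions were made, since progesterone and knockout have 1 library each, and shares carry exact 95% intervals. The counting step was tested on simulated data. Alternatives were other windows, bin sizes, loop lengths, neighbouring genes counted once, and each vehicle library left out. Python 3.11.15 was used with numpy 2.4.6, pandas 2.3.3, scipy 1.17.1 and matplotlib 3.10.9.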

Additional observations from a re-analysis of the deposited data

How the results depend on the processing

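The percentage of the 52 genes at a loop stayed above that of all genes in 28 of 28 values, at 1.19 to 1.9 times it. The main values are among the 28, and none was weighted by gene length or density. With 5 kb loops alone 20 genes had a loop in vehicle replicate 3, and with 10 kb loops alone 20 genes had one after progesterone, 21 in the knockout, 19 in vehicle replicate 2 and 18 in vehicle replicate 3, since fewer loops were counted. Counts of loops by kind moved more. With no widening of anchors, 22 loops were in all lists, 13 in V2 and V3 and not P4, and 25 in P4 and neither vehicle list. With 25 kb, 5 were in P4 and neither vehicle list and 5 in V2 and V3 and not ERKO. With 10 kb loops alone, 0 were in all lists, 2 in V2 and V3 and not P4, 5 in V2 and V3 and not ERKO, and 17 in the knockout and neither vehicle list. Loops of V2 and V3 and not P4 numbered 3 without a gene window and 8 with one of 25 kb. Without a gene window the share of each list was 0.502% after progesterone, 0.472% in the knockout, 0.58% in vehicle replicate 2 and 0.575% in vehicle replicate 3, and with 25 kb it was 0.902% in P4, 0.847% in ERKO, 1.01% in V2 and 1.03% in V3. Leaving out 1 vehicle library gave 47 to 60 loops in all lists, 17 to 52 in vehicle and not after progesterone, 12 to 27 after progesterone and not in vehicle, 16 to 43 in vehicle and not in the knockout, and 54 to 79 in the knockout and not in vehicle. Of 71 values under an alternative, 41 stayed within the 95% interval or 1.5 times the value reported, and 30 did not. No paired analysis was possible because progesterone and vehicle share a single replicate number and no test was made. Depth is unknown and limits every statement that a loop was not listed.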
